A study of Komagataella phaffii GS115 with 6 samples.

Results

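YPS1 (PAS_chr3_0299) and pfl5 (PAS_chr2-2_0482) are the genes for a protease and a putative adhesin of the cell surface of the yeast Komagataella phaffii (Pichia pastoris). They are 2 of the 115 genes in the table analysed here, and were taken by their identifiers. Transcripts had been measured by RNA-seq in strain GS115, given as WT in the labels, after 48 h in BMMY with 1% maltose (3 libraries) and after 48 h in BMMY alone (3 libraries). BMMY is a rich, buffered broth in which methanol feeds the cells, so the maltose cultures had methanol as well. The study is about making recombinant collagen in this yeast, and this comparison addresses what maltose does to its transcripts. The labels do not mention a collagen construct in these cells. The labels do not say whether libraries of a medium came from separate cultures, so the spread between them may be technical.

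Yapsins are aspartic proteases held at the outside of the plasma membrane or in the cell wall by a glycosylphosphatidylinositol (GPI) anchor. In Saccharomyces cerevisiae, Yps1 cuts proteins after basic residues, processes proteins of the cell surface and is needed for a sound cell wall. Yeast that secretes a recombinant protein exposes it to such surface proteases, and yapsin genes have been deleted from production strains of Komagataella for that reason. Flocculins are large wall proteins through which yeast cells stick to each other or to surfaces, and Flo11 is the best studied of them in S. cerevisiae. The name pfl5 comes by similarity from a putative cell agglutination protein of Schizosaccharomyces pombe, and the function of this gene in K. phaffii is not known from the annotation.

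Both transcripts were lower with maltose, pfl5 by 7.59-fold and YPS1 by 3.05-fold when libraries were scaled by their total depth alone. These differences are a description and carry no test, because all 115 genes had been selected by the authors on this same comparison. In the authors' deposited table the log2 fold change of every gene was 1.0 or more in size, with a p-value of at most 0.0465, 59 genes being lower and 56 higher with maltose. The authors' deposited table gave YPS1 a log2 fold change of -1.25 (p = 1.74e-22) and pfl5 one of -2.54 (p = 3.12e-29). The lower genes just inside the limit in the authors' deposited table were MET6 and YGL159W, both at -1.0, and genes outside it were not analysed here. By the authors' deposited fold changes pfl5 had the 4th largest fall of 59 and YPS1 the 34th.

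The depth of each library, worked out from counts, FPKM values (fragments per kilobase of gene and M fragments) and gene lengths, ran from 35.3 to 55.3 M fragments in the maltose libraries and from 53.2 to 76.1 M in the BMMY libraries. The listed genes took 14.91% to 15.28% of that depth with maltose and 6.83% to 10.13% in BMMY. BMMY replicate 1 was the outlying library of its medium: over the listed genes the chi-square of its counts against theirs was 219941 and 215325, against 25493 between replicates 2 and 3 (114 degrees of freedom each). Maltose replicate 3 stood apart in its medium likewise, with 91424 and 68327 against the others and 10307 between maltose replicates 1 and 2. Fold changes are therefore also given without each of these libraries.

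YPS1 had between 292 and 385 counts in the 3 maltose libraries, and 1094, 1619 and 1317 counts in BMMY replicates 1, 2 and 3. Per length and depth this came to 4.39, 4.13 and 5.22 FPKM with maltose and 12.98, 13.43 and 15.54 FPKM in BMMY. All maltose values lay below all BMMY values, and the lowest BMMY value was 2.49 times the highest maltose value. Every maltose value likewise lay below every BMMY value in 51.3% of the 115 listed genes, and above it in 43.5%, so nothing is read from this separation. The exact 95% Poisson interval of a YPS1 count, which covers counting error only, ran from 4.64 to 5.85 FPKM in maltose replicate 3, the highest of its group. It ran from 3.68 to 4.63 FPKM in maltose replicate 2, the lowest. On the deposited FPKM scale these 2 intervals just missed each other, but that gap depends on the scaling between libraries. Relative to implied depth, the scaling behind the authors' fold changes had factors of 0.844 for maltose replicate 2 and 0.97 for replicate 3. Dividing by these factors brings the 2 values closer, so no spread beyond counting error is read from the gap.

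pfl5 was scarcer. It had 115, 81 and 45 counts in maltose replicates 1, 2 and 3, and 599, 1000 and 795 counts in BMMY replicates 1, 2 and 3. The levels were 0.823, 0.701 and 0.497 FPKM with maltose and 4.46, 5.21 and 5.89 FPKM in BMMY. Again the groups did not overlap, and the lowest BMMY value was 5.42 times the highest maltose value. As for YPS1, nothing is read from the separation, which 51.3% of the 115 listed genes showed in this direction and 43.5% in the other. With 45 counts, maltose replicate 3 had an exact Poisson interval of 0.363 to 0.665 FPKM, just under the 0.68 to 0.988 FPKM of maltose replicate 1. The maltose level of pfl5 thus rests on few reads, with a counting error of 9.3%, 11.1% and 14.9% in the 3 libraries, and varied between them by more than counting error alone.

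**Figure D1:**
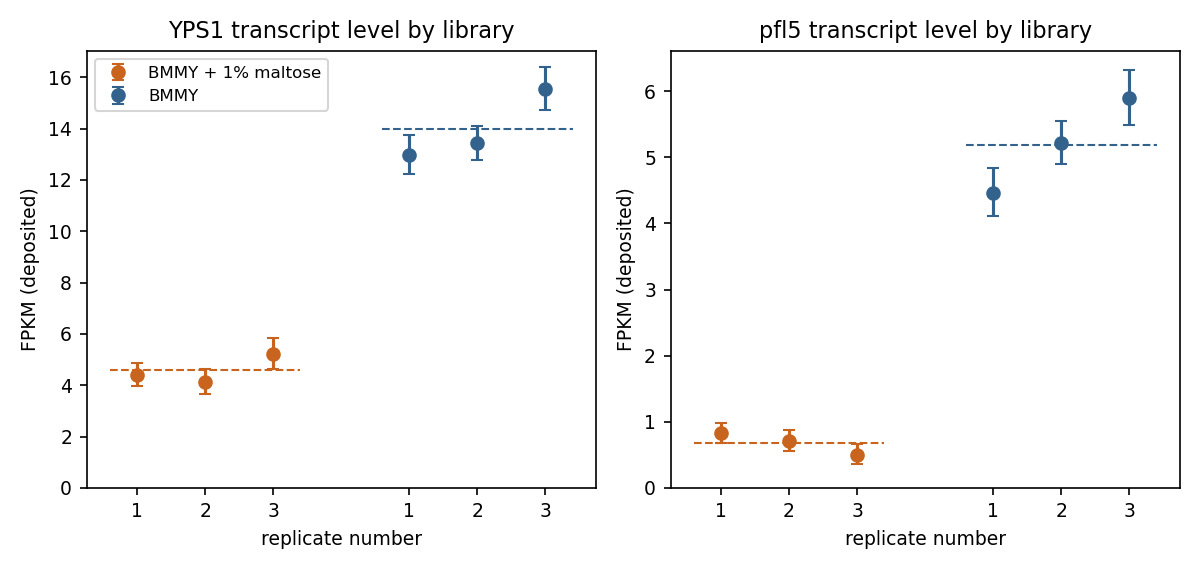
Deposited FPKM of YPS1 (left) and pfl5 (right) in each library, with the maltose libraries on the left of each panel and the BMMY libraries on the right; bars are exact 95% Poisson intervals of the count and dashed lines are group means. YPS1 averaged 4.58 FPKM with maltose and 13.98 FPKM in BMMY, and pfl5 averaged 0.674 FPKM with maltose and 5.19 FPKM in BMMY. The media did not overlap for either gene, as for most listed genes (51.3% with maltose all below, 43.5% all above).

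On average YPS1 had 4.58 ± 0.568 FPKM with maltose and 13.98 ± 1.37 FPKM in BMMY (SD, n = 3 each). Its log2 fold change of counts, maltose over BMMY, was -1.61 (SE 0.18) in a fit of edgeR across the table. pfl5 averaged 0.674 ± 0.165 FPKM with maltose and 5.19 ± 0.713 FPKM in BMMY (SD, n = 3 each), a log2 fold change of -2.92 (SE 0.24). Without BMMY replicate 1 the log2 fold changes were -1.66 for YPS1 and -3.01 for pfl5, slightly larger in size than with it. Without maltose replicate 3 they were -1.71 for YPS1 and -2.76 for pfl5. As bulk values, they do not tell fewer cells that express a gene apart from less RNA per cell.

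Among the 112 genes with a mean of at least 1 FPKM over the 6 libraries, 56 had negative fold changes. The fall of pfl5 was the 4th largest of these 56 and that of YPS1 the 32nd, with 24 genes closer to 0. Both passed that minimum, but pfl5, with a maltose mean under 1 FPKM, did so through its BMMY level. Both also had an adjusted p under 0.05 by edgeR's quasi-likelihood test. So did 93.8% of the tested genes in either direction, and 50.0% of them as lower, which follows from how the list was made.

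**Figure D2:**
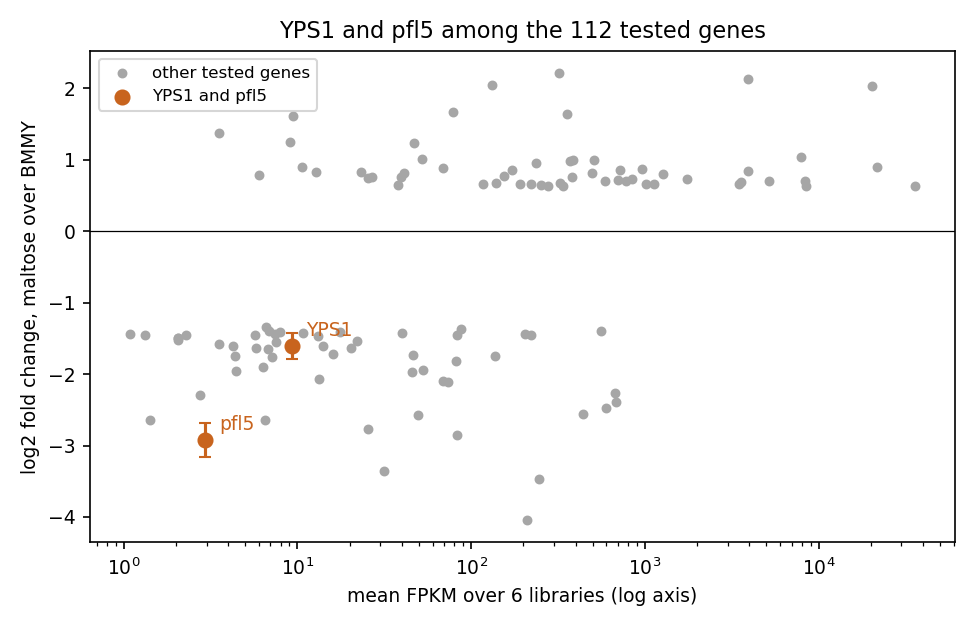
Log2 fold change, maltose over BMMY, against the mean FPKM over 6 libraries (log axis) for the 112 tested genes; YPS1 and pfl5 are in orange with standard errors and the other genes in grey. pfl5, at a mean of 2.93 FPKM and -2.92, lies low on both axes, and YPS1, at 9.28 FPKM and -1.61, lies among many lower genes of like size; the empty band around 0 is the authors' selection.

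In level, both were among the weakly expressed listed genes. In BMMY 33 of the 115 genes had a lower mean FPKM than YPS1 and 14 a lower one than pfl5. With maltose 27 genes had a lower mean than YPS1 and 5 a lower one than pfl5. The 115 genes include the higher ones, many of them far more abundant. Among the lower genes alone YPS1 was near the middle in mean FPKM over the 6 libraries, and pfl5 was among the weaker. In maltose replicate 3 only 3 listed genes were below pfl5. YPS1 held 7.26 reads per M fragments of the implied depth on average with maltose and 22.2 in BMMY. For pfl5 these averages were 1.71 with maltose and 13.1 in BMMY.

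YPS1 exceeded pfl5 in every library, and the gap was wider with maltose. The FPKM ratio of YPS1 to pfl5 was 5.34, 5.89 and 10.5 in maltose replicates 1, 2 and 3, and 2.91, 2.58 and 2.64 in BMMY replicates 1, 2 and 3. As a log2 ratio this was 2.79 ± 0.53 with maltose and 1.43 ± 0.093 in BMMY (SD, n = 3 each), a difference of 1.35. A ratio within a library does not depend on how libraries are scaled to each other. The difference is a description, since both genes came from the selected list. Maltose replicate 3, with the largest ratio, had the highest maltose level of YPS1 and the lowest of pfl5. Without it the difference of log2 ratios was 1.05.

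**Figure D3:**
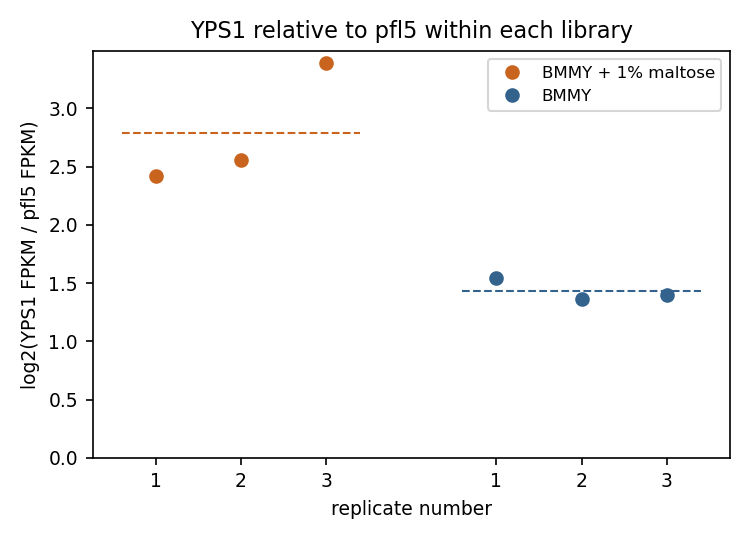
Log2 ratio of YPS1 FPKM to pfl5 FPKM in each library, maltose libraries on the left and BMMY libraries on the right, with group means as dashed lines. The maltose ratios sit between 2.42 and 3.39 and the BMMY ratios between 1.36 and 1.54, so the BMMY libraries are tightly grouped and maltose replicate 3 lies above the rest.

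Such a comparison of levels between genes rests on the lengths used. The RefSeq lengths (assembly ASM2700v1) are 1584 bases for YPS1 and 2520 bases for pfl5, a ratio of 1.59 for pfl5 over YPS1. The ratio implied by the deposited counts and FPKM values was 1.59 to 1.62 over the 6 libraries. No sequence is shown for either gene, and no coordinates are given, because the genome build of the counting is not given in the sources used here.

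Within a medium the genes varied differently. In BMMY the SD of log2 FPKM was 0.138 for YPS1 and 0.2 for pfl5, both under the median of 0.281 over the 115 genes. With maltose it was 0.175 for YPS1 and 0.372 for pfl5, against a median of 0.158 over the table, and 11 of the other genes varied more than pfl5. Both genes had their lowest BMMY level in replicate 1 and their highest in replicate 3, an order shared by 16 of the 59 lower genes. In the maltose libraries their orders differed. Replicate 3 was the highest for YPS1, as in 41 of the 59 lower genes, but the lowest for pfl5, as in 10 of them. These SDs and orders are of FPKM as deposited and depend on the scaling between libraries. Relative to implied depth, the authors' scaling had factors of 0.837, 0.844 and 0.97 in maltose replicates 1, 2 and 3. It thus lowers replicate 3 against the others for every gene, and the SDs were not recomputed with it.

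The profile of a gene was taken as its log2 FPKM in the 6 libraries minus its own mean, and profiles were compared by their root mean square distance, which scaling between libraries does not change. The nearest to YPS1 was DAL1 (PAS_chr1-3_0023), allantoinase, which opens the ring of allantoin, at a distance of 0.076. DAL1 averaged 3.82 ± 0.82 FPKM with maltose and 11.2 ± 1.05 FPKM in BMMY (SD, n = 3 each). Next came gdh-1 (PAS_chr2-1_0311), annotated as the NAD-dependent glutamate dehydrogenase that releases ammonia from glutamate, at 0.085. This gene averaged 7.44 ± 1.38 FPKM with maltose and 24.6 ± 1.8 FPKM in BMMY. The third was PAS_chr3_0499, a hypothetical protein, at 0.095.

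pfl5 had no profile so close. Its nearest were PAS_chr1-3_0154, named ARO8 after an aromatic aminotransferase, at a distance of 0.385, and the proline oxidase gene PUT1 (PAS_chr1-3_0269) at 0.387. The third was PAS_chr3_0016, a hypothetical protein, at 0.432. The median distance of a listed gene to its nearest gene was 0.103, and 2 of the other genes were farther from their nearest than pfl5. YPS1 and pfl5 were 0.744 apart, and 54 genes were nearer to YPS1 than pfl5 was. These distances describe a list selected for one contrast, over 6 libraries. Profiles were not scaled to a common size, so a distance depends in large part on how far 2 fold changes differ. The 3 genes nearest to YPS1, itself at -1.61, had log2 fold changes of -1.49 to -1.72. Those of the 3 genes nearest to pfl5, itself at -2.92, were -2.57 to -3.47. Counting error enters the distances too, and with maltose it was larger for pfl5 than for YPS1.

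**Figure D4:**
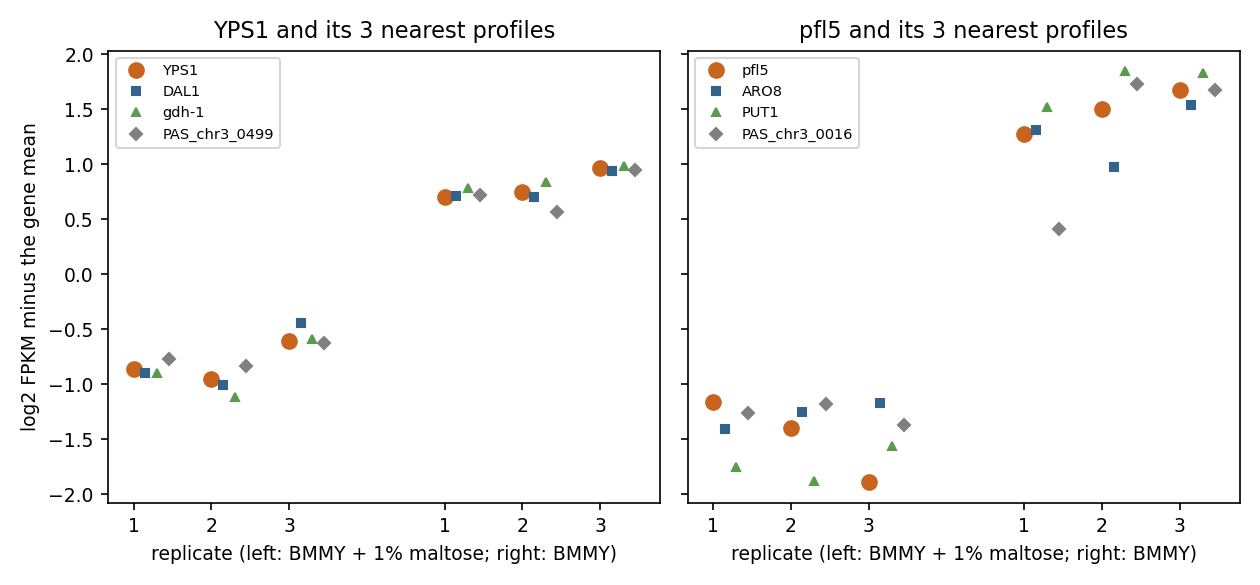
Log2 FPKM minus each gene's mean over the 6 libraries, for YPS1 (left panel) and pfl5 (right panel) and the 3 genes with the nearest profiles; in each panel the maltose libraries are on the left and the BMMY libraries on the right. YPS1 and the genes nearest to it lie close together in each library (distances of 0.076 to 0.095), while those nearest to pfl5 are more scattered (0.385 to 0.432), and pfl5 is the lowest of the 4 in maltose replicate 3.

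Few genes of the table matched the keywords for the cell wall, the cell surface or proteases. YPS1 was the 1 match to a keyword list for cell wall and cell surface proteins, through its GPI anchor, and the 1 match to a list for proteases and their inhibitors. pfl5 matched neither, since its annotation says cell agglutination and not flocculin or agglutinin, so such a list can miss surface genes. YPS1 was also the 1 gene of the table with the Pfam eukaryotic aspartyl protease domain, and pfl5 the 1 gene with the Flo11 domain. Other yapsins, flocculins and wall enzymes of the genome were not analysed here.

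A wider list of plasma membrane and extracellular keywords matched 13 genes, mostly transporters. Of the 12 tested, YPS1 included, 8 were called lower and 4 higher, beside 50.0% lower and 43.8% higher over all genes tested. The median log2 fold change was -1.41 over the 11 without YPS1 and -0.35 over all 112 genes tested. The second median falls in the empty band between 56 lower and 56 higher genes and was -1.36 over all 115 genes without the minimum on FPKM, so nothing is read from the gap between the medians. PUT4, the proline permease, had 5.58 ± 1.97 FPKM with maltose and 57.3 ± 6.11 FPKM in BMMY (SD, n = 3 each). ALR1 (PAS_chr2-2_0005), a magnesium transporter of the plasma membrane, had 0.935 ± 0.176 FPKM with maltose and 4.59 ± 0.726 FPKM in BMMY, a log2 fold change of -2.3 (SE 0.22). The other lower members named by the fixed rule were the iron transporter gene FET4, the zinc transporter gene zrt1, the methionine permease gene MUP1 and SFC1. SFC1 is a mitochondrial succinate-fumarate carrier, so the keyword transporter matched it wrongly for the cell surface. TPN1, the vitamin B6 transporter, was the higher member named by the rule, with 212 ± 18.7 FPKM with maltose and 51.3 ± 28.4 FPKM in BMMY. YPS1, at -1.61, lay between FET4 at -1.82 and zrt1 at -1.58.

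Genes that share a broad annotation with YPS1 or pfl5 went both ways. pfl5 is 1 of 20 genes with the GO term for an intrinsic component of membrane, 11 of them lower and 9 higher with maltose in the authors' deposited table. YPS1 is 1 of 6 genes in the eggNOG class of protein modification, turnover and chaperones, 3 lower and 3 higher in the authors' deposited table. Of all 115 genes 59 were lower and 56 higher in the authors' deposited table, so nothing is read from these splits. In the RefSeq gene order none of the 8 genes within 2 places of YPS1 or pfl5 is in the table analysed here. That table holds only 115 of the 5040 RefSeq genes, so nothing is read from their absence.

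The size of both differences moved with the scaling between libraries, and their direction did not under any scaling tried. Nothing is read from the stable direction, since the lower genes were selected as lower on this contrast. Of the tested genes, 56 were called lower with the authors' scaling, TMM, equal FPKM sums or DESeq2, and 50 with equal medians. Equal medians, equal sums, TMM and the size factors of DESeq2 were all taken from the listed genes. As that list was selected for change, they are not genome-wide references. The implied depths behind the main values are total depths only. They make no allowance for the larger share of depth that the listed genes took with maltose. The authors' deposited log2 fold changes were higher than those of mean FPKM by a median of 0.37. With the authors' scaling the falls were 2.38-fold for YPS1 and 5.82-fold for pfl5. With the scaling behind the authors' fold changes YPS1 was at -1.25 and pfl5 at -2.54 on the log2 scale. With equal median FPKM over the listed genes they were at -0.80 and -2.1, the smallest among the scalings. With equal FPKM sums they were at -2.5 and -3.82, the largest. The median of all tested genes shifted by 0.35, 0.81 and -0.86 under these 3 scalings and by -0.49 with TMM. Measured from that median, YPS1 was between -1.25 and -1.29 and pfl5 between -2.54 and -2.61 under these scalings, which move all genes nearly alike by construction. The distance itself rests on where the median falls: without the minimum on FPKM it was -0.25 for YPS1 and -1.56 for pfl5, while their fold changes were -1.61 and -2.92 as before.

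**Figure D5:**
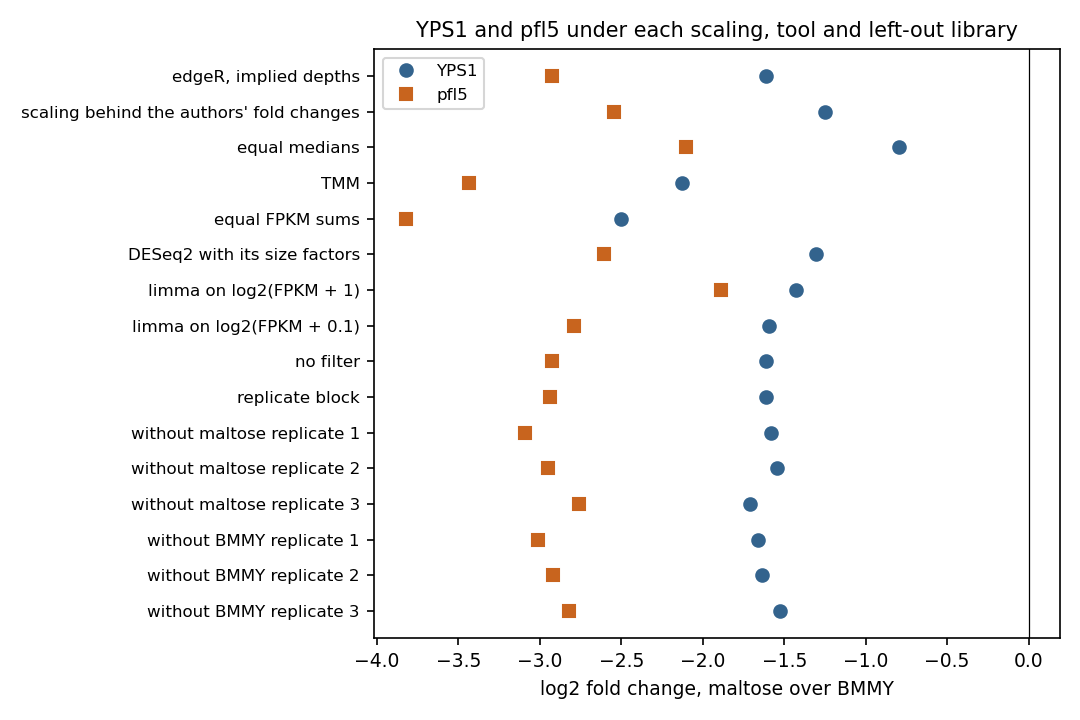
Log2 fold change, maltose over BMMY, of YPS1 (blue circles) and pfl5 (orange squares) under each scaling, tool and left-out library. All points lie below 0, YPS1 between -2.5 and -0.80 and pfl5 between -3.82 and -1.89, and pfl5 lies left of YPS1 in every row.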

How the data were processed

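The table analysed here holds, per gene and library, whole-number read counts and FPKM values deposited by the authors, per the file headers. The authors also deposited a p-value and a log2 fold change per gene, whose test no source used here describes. The submitters' processing notes list CASAVA, HISAT2 (2.2.1) and StringTie without roles. For the build, annotation and strand setting the sources used here give nothing. Both genes, and the keyword lists, were chosen with earlier results of these data known.

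All 115 identifiers matched RefSeq (assembly ASM2700v1), used for lengths and gene order. The depth of a library was implied by count, FPKM and length (median over genes), and served as library size in edgeR 4.0.16 (R 4.3.3; quasi-likelihood fit, group as the only term, Benjamini-Hochberg adjustment over 112 genes with a mean of at least 1 FPKM). SE is the absolute log2 fold change divided by the square root of F. The fit was tried on simulated counts in which most genes did not change and all shared the same dispersion. That check does not cover a list selected for change. The authors' scaling was solved from counts and deposited fold changes (largest difference 0.0034, log2, over 92 genes with at least 200 counts in every library). Alternatives were 4 scalings, DESeq2 1.42.0, limma 3.58.1 on log2(FPKM + 1) and log2(FPKM + 0.1), no filter, a replicate block and leaving out each library. Named genes were YPS1, pfl5, the 3 nearest profiles of each, their neighbours in gene order, and up to 8 genes per keyword list by size of change. MET6 and YGL159W were named after their values were seen. No 2 libraries of a medium agreed within counting noise. Sequences are not shown.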

Additional observations from a re-analysis of the deposited data

How the results depend on the processing

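Both genes were lower with maltose in all 15 alternatives, from which nothing is read, as they were selected as lower on this contrast. The difference moved by less than 1 SD between replicates in 9 of 15 for each. The others gave, for YPS1 and pfl5 in turn on the log2 scale, -0.80 and -2.1 where median FPKM was equalised, -2.5 and -3.82 with equal FPKM sums, -2.12 and -3.43 with TMM, -1.25 and -2.54 on the scale of the authors' fold changes, -1.3 and -2.6 with DESeq2, and -1.43 and -1.89 with limma on log2(FPKM + 1). A pseudocount of 1 exceeds the maltose level of pfl5 and so shrinks its difference by construction, and that of the log2 ratio of YPS1 to pfl5 to 0.46. Leaving out each library gave -1.71 to -1.53 for YPS1, -3.09 to -2.76 for pfl5 and 1.05 to 1.54 for the log2 ratio. Genes called numbered 105, but 69 with TMM and 63 with equal FPKM sums, and 85 to 112 with a library left out. The called genes split into 56 lower and 49 higher, but 56 and 13 with TMM, 56 and 7 with equal FPKM sums, 50 and 56 with equal medians and 56 and 29 without BMMY replicate 2. The labels do not say whether libraries of the same replicate number belong together. Deviations of same-numbered libraries correlated at -0.2, 0.0 and 0.0, and those of differently numbered ones at -0.17 to 0.28. Over genes selected for change, these correlations cannot settle it. With the number as a replicate block YPS1 was at -1.61, pfl5 at -2.94 and 105 genes were called. The pairwise mean of the log2 ratio was 1.35, which equals the difference of group means by arithmetic. Depth limits pfl5 most, which had 45 to 115 counts with maltose.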
